A study of Mus musculus with 12 samples.

Results

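The 10 genes of immune checkpoint receptors and their ligands were followed through 12 pancreatic tumours of mice, tumour by tumour. They were Pdcd1, Ctla4, Lag3, Havcr2, Tigit and Icos, which encode receptors on lymphocytes, and Cd274, Pdcd1lg2, Cd80 and Cd86, which encode ligands of such receptors. A gene was taken in if a noncontrol probe on the array carried its symbol, whatever its values, and this gave 10 genes with 17 probes among 27373 genes tested and 56605 probes. All 10 genes had at least 1 probe that passed the filter on dim probes, and 16 of the 17 probes passed it. The tumours were orthotopic KP tumours in female C57BL/6 mice aged 8 weeks. One group of 6 had been given FAKi, an inhibitor of focal adhesion kinase, at 50 mg/kg by gavage, and the other group of 6 had been given vehicle, both for 14 days. Total RNA came from tumour tissue, so each value mixes tumour cells, stroma and infiltrating leukocytes. The labels number 6 replicates in each group without naming the animals, so p-values measure the spread between these samples. The KP alleles and the way the tumours were seeded are not described further in the labels.

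T cells need a signal through CD28, and checkpoint receptors restrain that signal once a T cell is active. PD-1, the product of Pdcd1, binds PD-L1 (Cd274) and PD-L2 (Pdcd1lg2) on tumour and myeloid cells, and CTLA-4 competes with CD28 for CD80 and CD86 on antigen-presenting cells. LAG-3, TIM-3 (Havcr2) and TIGIT are further receptors that mark T cells under lasting stimulation, while ICOS is a co-stimulatory receptor of activated T cells. Interferon-gamma, which T cells and natural killer cells secrete, is a known inducer of PD-L1.

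Values are log2 signals minus the array's own 75th percentile of log2 signal, so 0 is a bright probe and negative values are dimmer ones, and levels of different probes are not comparable. Between 66.6% and 76.1% of spots were well above background, with the lowest shares in vehicle 6 (66.6%) and vehicle 5 (67.2%). In limma over all 27373 genes 0 passed at an adjusted p under 0.05 (0%), and 1312 (4.79%) had an unadjusted p under 0.05. The median difference of all genes was 0.08 log2. Of the marker lists, 8 of 8 measured epithelial genes and 7 of 7 acinar genes were well above background on all 12 arrays. So were 11 of 11 T cell genes and 12 of 12 macrophage genes. The T cell subset, interferon-gamma response, dendritic cell and fibroblast lists were likewise complete among their measured genes. The counts were 5 of 9 for cytotoxic, 6 of 8 for B cell and 3 of 4 for endothelial genes. Of the 27373 genes tested, 22803 had a probe well above background on all 12 arrays. Measured genes had already passed the filter on dim probes. The arrays lay on 5 slides. Slide 3 held FAKi 2, FAKi 3 and FAKi 4, slide 5 held FAKi 6, slide 2 held vehicle 1 and vehicle 4, and slides 1 and 4 each held 1 FAKi tumour (FAKi 5 and FAKi 1) with 2 vehicle tumours.

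None of the 10 checkpoint genes passed the test between FAKi and vehicle tumours. In limma 0 of 10 passed at an adjusted p under 0.05, against 0% of all genes, and 0 of 10 had an unadjusted p under 0.05, against 4.79% of all genes. The groups overlapped for every one of the 10, while 65 of 27263 genes with values on all arrays (0.238%) had groups that did not overlap. The difference was above 0 for 7 of 10 checkpoint genes and for 60.5% of all genes, with medians of 0.22 and 0.08 log2. In bulk tissue, fewer cells of a type and less RNA per cell cannot be told apart.

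**Figure D1:**
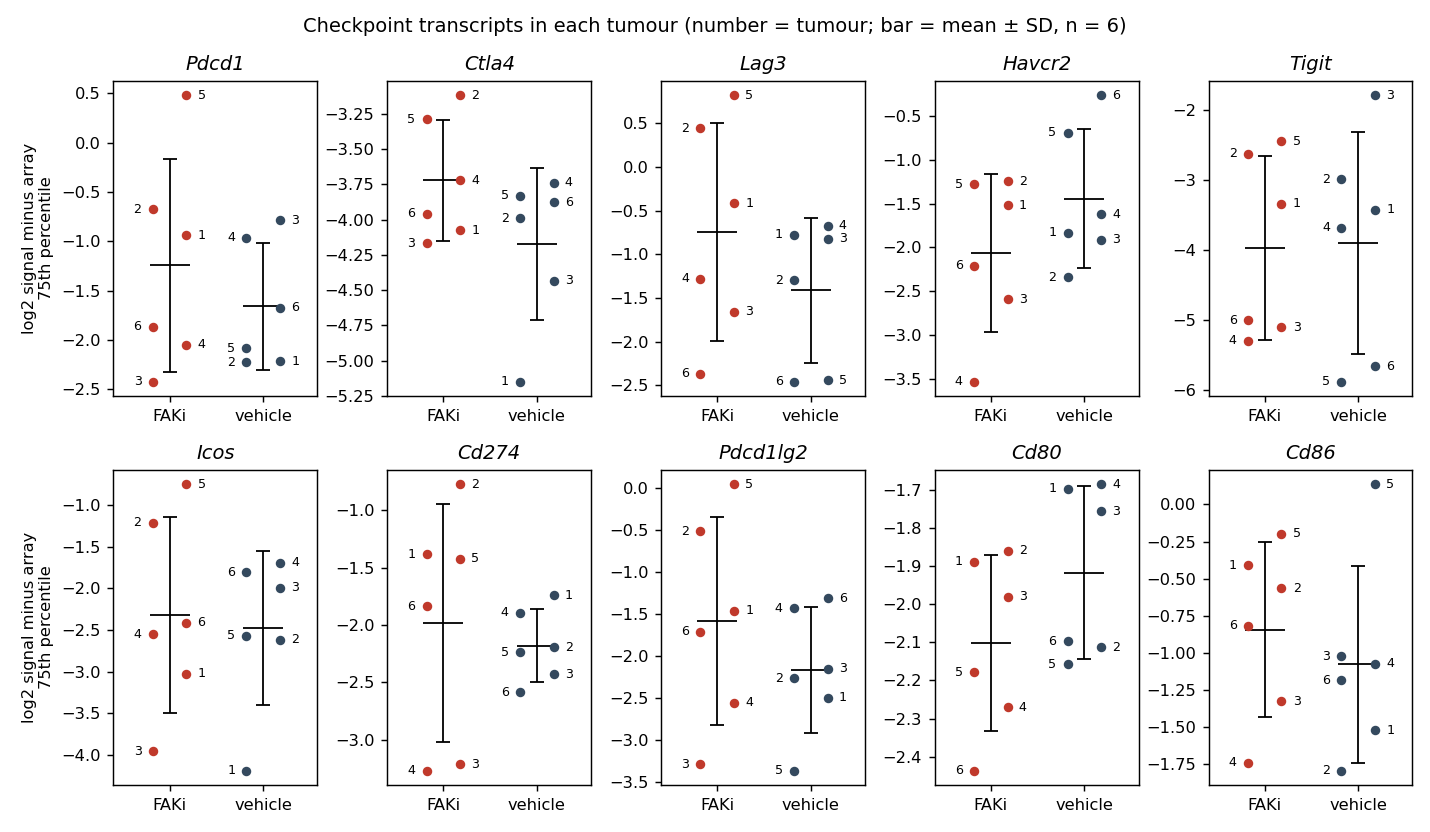
Level of each of the 10 genes in each tumour, as log2 signal minus the array's 75th percentile, with FAKi on the left and vehicle on the right of each panel. Points carry the tumour's number, and bars are the mean ± SD of 6 tumours. The groups overlap in every panel, and Cd274 ranges over 2.50 log2 in FAKi tumours and over 0.85 in vehicle tumours.

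Among the T cell receptors, Pdcd1 had values of −0.94, −0.68, −2.43, −2.05, 0.48 and −1.87 in FAKi 1 to 6, against −2.22, −2.23, −0.79, −0.96, −2.09 and −1.68 in vehicle 1 to 6. FAKi 5 stood highest of all tumours and FAKi 3 lowest, with the vehicle tumours inside that span. The mean was −1.25 ± 1.08 in FAKi tumours and −1.66 ± 0.64 in vehicle tumours (SD, n = 6 each). The difference was 0.41 log2 (SE 0.47, 95% interval −0.59 to 1.42, limma adjusted p = 0.9994). It was 0.069 without FAKi 5 and 0.65 without FAKi 3.

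Ctla4, the receptor that competes with CD28, had −4.08, −3.12, −4.17, −3.72, −3.29 and −3.96 in FAKi 1 to 6, against −5.15, −3.99, −4.43, −3.74, −3.83 and −3.88 in vehicle 1 to 6. FAKi 2, 4 and 5 lay above every vehicle tumour, and FAKi 1, 3 and 6 fell among them. All 6 FAKi tumours lay above the vehicle mean of −4.17, FAKi 3 only barely. Against the vehicle median of −3.93, FAKi 1, 3 and 6 were lower. The difference was 0.45 log2 (SE 0.29, 95% interval −0.17 to 1.07, limma adjusted p = 0.9994), and its unadjusted p of 0.144 was the smallest among the 10 genes. Vehicle 1 was the lowest tumour, and without it the difference was 0.25 log2.

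Icos, the co-stimulatory receptor encoded next to Ctla4 on chromosome 1 in RefSeq (GRCm38.p6), with Cd28 on the other side of Ctla4, had −3.03, −1.22, −3.95, −2.55, −0.75 and −2.41 in FAKi 1 to 6. The vehicle tumours 1 to 6 had −4.18, −2.62, −1.99, −1.69, −2.57 and −1.81. FAKi 2 and FAKi 5 were highest, and vehicle 1 and FAKi 3 lowest. The difference was 0.16 log2 (SE 0.55, 95% interval −1.02 to 1.34, limma adjusted p = 0.9994), and it was −0.18 without vehicle 1.

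Lag3, a receptor for MHC class II, had −0.42, 0.44, −1.66, −1.28, 0.82 and −2.37 in FAKi 1 to 6, against −0.78, −1.30, −0.82, −0.67, −2.44 and −2.46 in vehicle 1 to 6. FAKi 1, 2 and 5 lay above every vehicle tumour, and FAKi 6 lay with vehicle 5 and vehicle 6 at the bottom. The difference was 0.67 log2 (SE 0.55, 95% interval −0.51 to 1.85, limma adjusted p = 0.9994), the highest of the 10, and it was 0.36 without FAKi 5 and 0.99 without FAKi 6. A second Lag3 probe gave 0.95 log2 (SE 0.55) and followed the first across the 12 tumours (r = 0.92). Lag3 lies next to Cd4 in RefSeq.

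Havcr2, which encodes TIM-3 of T cells and myeloid cells, had −1.52, −1.25, −2.59, −3.53, −1.28 and −2.21 in FAKi 1 to 6, against −1.83, −2.34, −1.91, −1.62, −0.69 and −0.27 in vehicle 1 to 6. It was the lowest difference of the 10, at −0.62 log2 (SE 0.45, 95% interval −1.59 to 0.35, limma adjusted p = 0.9994), and −0.32 without FAKi 4. The 2 highest tumours were vehicle 5 and vehicle 6, the arrays with the fewest spots well above background. Without these 2 arrays the difference was −0.14 for Havcr2 and 0.15 for Lag3.

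Tigit, whose product binds CD155 (Pvr) and CD112 (Nectin2), had −3.34, −2.62, −5.10, −5.29, −2.44 and −5.01 in FAKi 1 to 6, against −3.42, −2.98, −1.79, −3.68, −5.88 and −5.66 in vehicle 1 to 6. Vehicle 5 and vehicle 6 were the lowest tumours and vehicle 3 the highest, and the Tigit signal was not well above background in 1 vehicle tumour. The difference was −0.07 log2 (SE 0.74, 95% interval −1.66 to 1.53, limma adjusted p = 0.9994), and it was −1.001 without vehicle 5 and vehicle 6. These 2 low values went with the 2 arrays with the fewest spots above background, and that relation was not tested.

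Of the ligands, Cd274 and Pdcd1lg2 lie next to each other on chromosome 19 in RefSeq. The 250 bases before each start site are shown because both genes are set against interferon-gamma response genes further on, and the capitals mark the core AANNGAAA of interferon regulatory factors, searched on both strands (RefSeq, GRCm38.p6, plus strand, chr19:29367188-29367437 and chr19:29410669-29410918).
Cd274: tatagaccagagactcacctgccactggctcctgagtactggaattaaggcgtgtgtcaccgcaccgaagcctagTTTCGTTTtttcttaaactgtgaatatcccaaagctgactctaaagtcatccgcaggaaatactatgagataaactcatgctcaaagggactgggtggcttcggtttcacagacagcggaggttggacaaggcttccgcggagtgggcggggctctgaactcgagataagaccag
Pdcd1lg2: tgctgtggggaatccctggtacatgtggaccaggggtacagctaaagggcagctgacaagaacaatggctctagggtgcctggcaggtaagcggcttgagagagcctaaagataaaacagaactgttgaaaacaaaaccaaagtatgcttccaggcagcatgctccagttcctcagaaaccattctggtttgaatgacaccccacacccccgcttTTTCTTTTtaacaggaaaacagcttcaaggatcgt
Each held 1 match, which began 175 bases upstream for Cd274 and 35 bases upstream for Pdcd1lg2. The promoter table listed 7 of the 10 genes, and 3 of those 7 (Cd274, Pdcd1lg2 and Pdcd1) had the core, against 21.3% of 32851 promoters. The longer interferon-response element, GAAA, any 2 bases and GAAA again, was in 0 of 7 and in 2.98% of promoters. These counts describe letters in a window.

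Cd274, which encodes PD-L1, had −1.38, −0.77, −3.21, −3.27, −1.42 and −1.83 in FAKi 1 to 6, against −1.74, −2.19, −2.43, −1.89, −2.24 and −2.58 in vehicle 1 to 6. FAKi 1, 2 and 5 lay above every vehicle tumour, FAKi 3 and 4 lay below every vehicle tumour, and FAKi 6 fell among them. The mean was −1.98 ± 1.03 in FAKi tumours and −2.18 ± 0.32 in vehicle tumours (SD, n = 6 each). The difference of 0.20 log2 (SE 0.41, 95% interval −0.69 to 1.08, limma adjusted p = 0.9994) was −0.044 without FAKi 2.

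Pdcd1lg2, which encodes PD-L2, had −1.46, −0.52, −3.29, −2.56, 0.05 and −1.71 in FAKi 1 to 6, against −2.50, −2.27, −2.16, −1.43, −3.37 and −1.31 in vehicle 1 to 6. FAKi 2 and FAKi 5 were the highest, as for Icos, and vehicle 5 and FAKi 3 the lowest. The difference was 0.59 log2 (SE 0.53, 95% interval −0.56 to 1.74, limma adjusted p = 0.9994). It was 0.27 without FAKi 5 and 0.93 without FAKi 3.

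Cd80, a ligand of CD28 and CTLA-4, was read by 4 probes, which disagreed. The probe that stood for the gene had the highest mean and hardly varied, with −1.89, −1.86, −1.98, −2.27, −2.18 and −2.44 in FAKi 1 to 6, against −1.70, −2.11, −1.76, −1.69, −2.16 and −2.10 in vehicle 1 to 6. It gave −0.18 log2 (SE 0.19, 95% interval −0.60 to 0.23, limma adjusted p = 0.9994), with the groups overlapping. The other probes gave 0.68 (SE 0.43), 0.55 (SE 0.58) and 0.33 (SE 0.29), each of the other sign, and 0 of 4 passed in the fit over all probes. Their signals spanned 3.07, 3.34 and 1.60 log2 over the 12 tumours, against 0.75 for the first, and they correlated with it at 0.23, 0.68 and 0.48 (n = 12). The probes of lowest transcript position, 583 and 872, are shown (mm9, chr16:38474174-38474233 and chr16:38479343-38479402, plus strand, as the array's design gives them). Both gave the sign opposite to the gene's own value, as did the probe at 2338 (0.68), which is not shown.
Cd80 at 583: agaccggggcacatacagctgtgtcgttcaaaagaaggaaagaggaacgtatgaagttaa
Cd80 at 872: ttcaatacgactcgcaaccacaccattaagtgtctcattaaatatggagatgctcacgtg
The probe at 583 was well above background on 9 of 12 arrays and that at 872 on 12 of 12. The sign of Cd80 therefore depended on the probe, and the mean of its kept probes gave 0.35 log2.

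**Figure D2:**
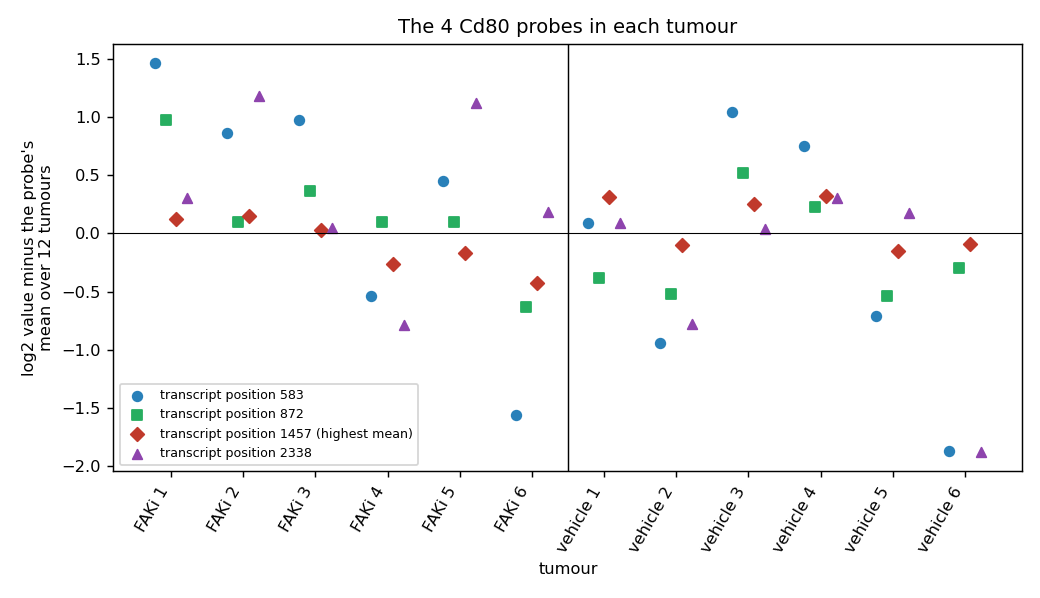
The 4 Cd80 probes in each tumour (FAKi left, vehicle right), as the log2 value minus that probe's mean over 12 tumours. The probe at transcript position 1457, which stood for the gene, spans 0.75 log2, and the other probes span 1.60 to 3.34.

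Cd86, the other ligand of CD28 and CTLA-4, had −0.41, −0.56, −1.33, −1.74, −0.20 and −0.82 in FAKi 1 to 6, against −1.52, −1.79, −1.02, −1.07, 0.14 and −1.19 in vehicle 1 to 6. Vehicle 5 was the highest tumour and vehicle 2 the lowest, and FAKi 3 and FAKi 4 were the low FAKi tumours. The difference was 0.23 log2 (SE 0.35, 95% interval −0.52 to 0.99, limma adjusted p = 0.9994). It was 0.091 without vehicle 2 and 0.48 without vehicle 5. The other probes that passed the filter gave 0.25 and 0.06. A dim probe to 1 alternative transcript was well above background on 4 of 12 arrays and gave −1.01 (SE 0.75), and it stayed out of the test. The probe at position 815 (mm9, chr16:36615381-36615440, minus strand) is shown as the one of lowest transcript position. It gave nearly the same difference as the probe that stood for the gene, but from another stretch of the transcript. Across the 12 tumours it correlated with that probe at 0.65, and the probe at 1928 did so at 0.92. At position 815 vehicle 5 read −0.90, below FAKi 5 at −0.22.
Cd86 at 815: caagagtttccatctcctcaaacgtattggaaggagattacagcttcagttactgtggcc

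**Figure D3:**
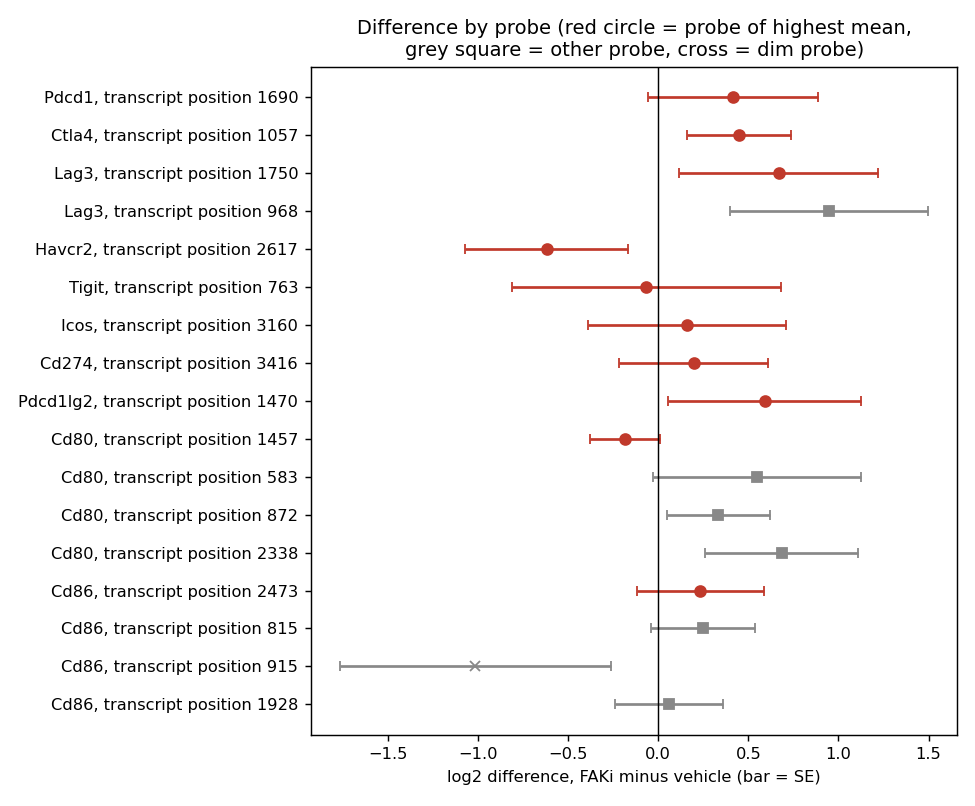
Difference by probe, FAKi minus vehicle, in log2 with SE bars (n = 6 each), for the 17 probes. Red circles are the probes that stood for the genes, grey squares other kept probes and the cross the dim probe. The Cd80 probe that stood for the gene lies below 0 and its 3 other probes above 0.

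Slides 1 and 4 held both groups, so a difference inside one of them compares 1 FAKi tumour with the 2 vehicle tumours on it. Within slide 1 the difference was 1.92 for Pdcd1, 2.45 for Lag3, 2.81 for Pdcd1lg2, 0.91 for Cd274 and 0.24 for Cd86. Within slide 4 it was 1.01, 1.46, 0.33, 1.01 and 1.08 for the same genes. For these 5 genes the FAKi tumour lay above the mean of the 2 vehicle tumours in both slides, but Pdcd1lg2 was lower in FAKi 1 than in vehicle 6, and Cd86 lower in FAKi 5 than in vehicle 5. With slide as a fixed block they gave 1.47, 1.96, 1.57, 0.96 and 0.66. Icos gave 1.53 within slide 1 and −0.81 within slide 4 (block 0.36), and Ctla4 gave 0.84 and −0.14 (block 0.35). Tigit gave 1.40 and 0.98 (block 1.19), Cd80 gave −0.22 and 0.22 (block −0.0024), and Havcr2 gave 0.023 and −0.21 (block −0.09). With the block, 0 of 10 passed in limma (adjusted p = 0.9999 for each), and the block values rest on FAKi 1 and FAKi 5. With it 2 of the 10 (Lag3 and Pdcd1) had an unadjusted p under 0.05, against 496 of all genes (1.81%), and 8 of 10 lay above 0, against 46.6% of all genes. FAKi 3 and FAKi 4, the low tumours, lay on slide 3, which held no vehicle tumour.

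Single tumours stood high or low in many of the 10 genes. FAKi 5 had the highest value in 4 of the 10 genes and was among the 3 highest tumours in 8. FAKi 2 was highest in 2 and among the 3 highest in 8. FAKi 3 and FAKi 4 were each among the 3 lowest tumours in 6 of the 10. FAKi 2, FAKi 3 and FAKi 4 all lay on slide 3, and a relation of slide to these ranks was not tested.

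**Figure D4:**
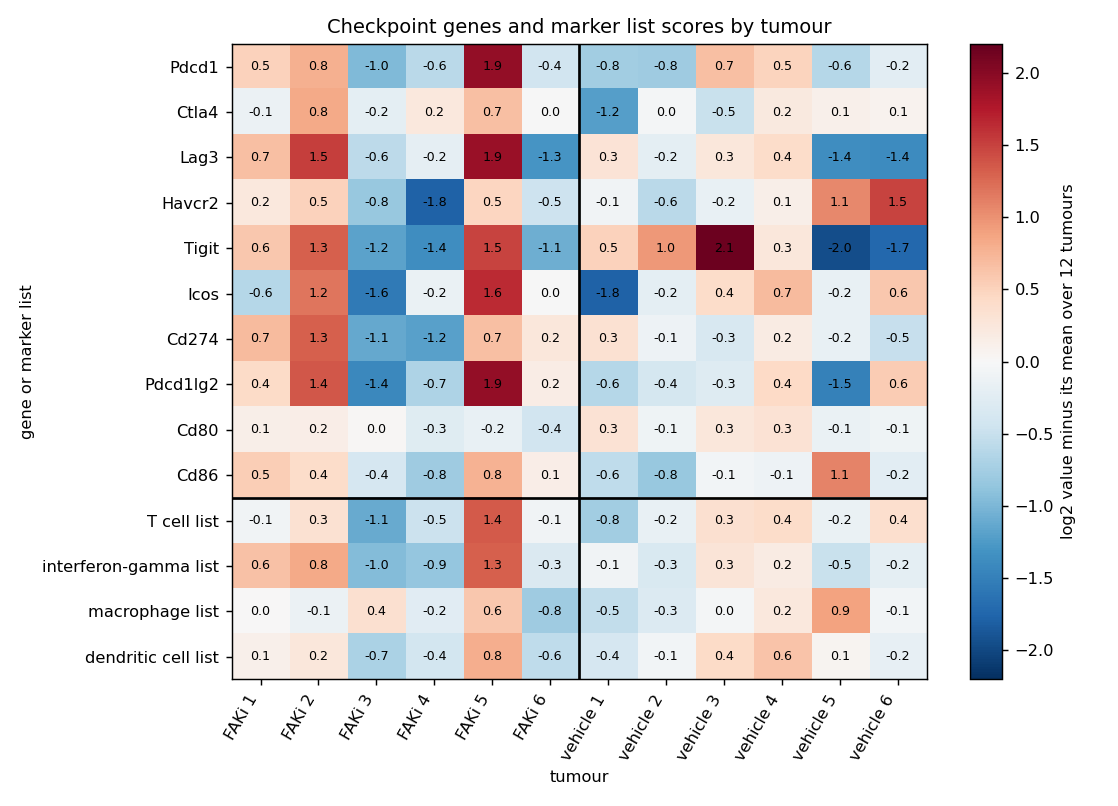
The 10 genes and 4 marker list scores in each tumour, as log2 value minus the mean over 12 tumours (FAKi left, vehicle right). FAKi 2 and FAKi 5 are red and FAKi 3 and FAKi 4 blue for most genes, and the T cell and interferon-gamma list scores of FAKi 5 are 1.35 and 1.31.

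The spread between tumours was compared as well. The SD in FAKi tumours over that in vehicle tumours was 3.25 for Cd274, 1.68 for Pdcd1, 1.65 for Pdcd1lg2 and 1.49 for Lag3, while the median ratio of all genes was 0.72. The mean absolute deviation from the group mean was wider in FAKi for 7 of 10 checkpoint genes, against 28.3% of all genes. These absolute deviations were compared in limma over all genes, a test chosen after seeing the data, and 1 of 27263 genes passed (0.00367%) with 3089 at an unadjusted p under 0.05 (11.3%), of which 343 (1.26% of all genes) were wider in FAKi. Of the 10 checkpoint genes 0 passed, and Cd274 was the 1 gene with an unadjusted p under 0.05, at 0.65 log2 wider (SE 0.21, limma adjusted p = 0.372).

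The variation between tumours was set against marker lists, with a score per tumour that averages the listed genes after centring each on its mean over 12 tumours. The T cell list had 11 genes (Cd3e and Lck among them), and its score was −0.01 ± 0.82 in FAKi tumours and 0.01 ± 0.46 in vehicle tumours (SD, n = 6 each). Its lowest and highest tumours were FAKi 3 (−1.10) and FAKi 5 (1.35). Cd3e itself differed by 0.09 log2, Cd8a by 0.07, Cd4 by 0.15 and Foxp3 by −0.03, and 0 of these 4 passed in limma (adjusted p = 0.9994 each). The macrophage list score was −0.03 ± 0.48 in FAKi and 0.03 ± 0.49 in vehicle tumours (SD, n = 6 each), with Cd68 at 0.03 log2. Of 7 measured dendritic cell genes 0 passed, 3 lay above 0 (Itgax at 0.23) and 4 below (Clec9a at −0.78), with a median of −0.02 log2. Of all genes 60.5% lay above 0, with a median of 0.08. The dendritic cell list score was −0.08 ± 0.57 in FAKi and 0.08 ± 0.37 in vehicle tumours (SD, n = 6 each).

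Each gene was regressed on the T cell score by limma, over all 27362 genes outside that list. Of these genes 3 passed (0.011%) and 689 (2.52%) rose with the score at an unadjusted p under 0.05. Of the 10 checkpoint genes 0 passed and 4 rose at an unadjusted p under 0.05 (Icos, Pdcd1, Pdcd1lg2 and Ctla4). Icos had a slope of 1.47 log2 per unit of score (SE 0.21, adjusted p = 0.0547). It passed under quantile normalisation, normexp correction and in the authors' deposited table, while the adjusted p was 0.481 without FAKi 5 and 0.9995 without FAKi 3 and FAKi 5 together. Pdcd1 had a slope of 1.21 (SE 0.22, adjusted p = 0.115), Pdcd1lg2 1.34 (SE 0.28, adjusted p = 0.179) and Ctla4 0.48 (SE 0.22, adjusted p = 0.9999). With slide as a fixed block the 4 slopes were 1.69, 1.30, 1.81 and 0.71, and none passed.

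Across the 12 tumours Icos correlated with the T cell score at r = 0.92 (rho 0.86, permutation p = 3e-05 and 0.0006). The r was 0.88 without FAKi 3 and FAKi 5, the tumours farthest from the median score, and 0.92 within FAKi tumours and 0.98 within vehicle tumours (exact permutation p = 0.011 and 0.0014, n = 6 each). For Pdcd1 r was 0.88 (rho 0.85, permutation p = 0.00016 and 0.00089) and 0.74 without those 2 tumours. For Pdcd1lg2 r was 0.83 (rho 0.84, permutation p = 0.00097 and 0.001) and 0.62 without them. Lag3 had r = 0.48 (rho 0.37, permutation p = 0.11 and 0.24) and 0.11 without the same 2 tumours. There were 30 such correlations, of 10 genes with 3 lists, and their p-values are unadjusted, while the limma regressions above and below are adjusted over all genes.

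On the macrophage score 0 of 27361 genes passed (0%), 1123 (4.1%) rose at an unadjusted p under 0.05, and 1 of the 10 checkpoint genes did so. That gene was Cd86, the ligand of antigen-presenting cells, with a slope of 0.79 (SE 0.33, limma adjusted p = 0.512). The slope ran from 0.54 to 1.16 when 1 array was left out. Its unadjusted limma p was not under 0.05 without vehicle 1, vehicle 2, vehicle 5 or FAKi 5. Nor was it with slide as a fixed block, or without FAKi 6 and vehicle 5 together. The r of Cd86 with the macrophage score was 0.60 (rho 0.57, permutation p = 0.037 and 0.058), and 0.61 without FAKi 6 and vehicle 5. Within a group r was 0.28 in FAKi tumours and 0.94 in vehicle tumours (exact permutation p = 0.59 and 0.013, n = 6 each), and the difference between these was not tested.

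The interferon-gamma response list (13 genes, Irf1 and Cxcl9 among them) was added as another score after seeing the data. Its score was 0.11 ± 0.95 in FAKi tumours and −0.11 ± 0.30 in vehicle tumours (SD, n = 6 each). FAKi 5 was highest (1.31) and FAKi 3 lowest (−0.95), as on the T cell score. A gene that rose with both scores is therefore not a separate finding for each. In the regression on the interferon-gamma score 2 of 27360 genes passed (0.00731%), namely Ifng and Batf2, and 535 (1.96%) rose at an unadjusted p under 0.05. Of the 10 checkpoint genes 0 passed and 6 rose at an unadjusted p under 0.05 (Pdcd1, Pdcd1lg2, Lag3, Cd274, Tigit and Icos). The slopes were 1.18 for Pdcd1 (SE 0.18, limma adjusted p = 0.0542), 1.30 for Pdcd1lg2 (SE 0.24, limma adjusted p = 0.134), 1.28 for Lag3 (SE 0.28, limma adjusted p = 0.264) and 0.90 for Cd274 (SE 0.21, limma adjusted p = 0.330). Pdcd1 passed with normexp correction and without vehicle 6, while its adjusted p was 0.600 without FAKi 5 and 0.998 without FAKi 2 and FAKi 5 together.

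Cd274 correlated with the interferon-gamma score at r = 0.83 over 12 tumours (rho 0.78, permutation p = 0.00086 and 0.0041), and at 0.79 without FAKi 2 and FAKi 5. Within FAKi tumours r was 0.89 and within vehicle tumours 0.15 (exact permutation p = 0.021 and 0.75, n = 6 each), and the difference between them was not tested. Such a split was not particular to Cd274. In FAKi and vehicle tumours r with this score was 0.93 and −0.29 for Cd86, and 0.91 and −0.39 for Havcr2. It was 0.97 and 0.85 for Pdcd1, and for Cd80 it was higher in vehicle tumours (0.35 and 0.87). The score spanned −0.95 to 1.31 in FAKi tumours and −0.49 to 0.28 in vehicle tumours. Pdcd1 had r = 0.92 (rho 0.88, permutation p = 3e-05 and 0.0003), Pdcd1lg2 0.86 (rho 0.83, permutation p = 0.00037 and 0.0015) and Lag3 0.81 (rho 0.78, permutation p = 0.0013 and 0.0035). Without FAKi 2 and FAKi 5 these were 0.84, 0.67 and 0.57. Tigit had r = 0.74 (rho 0.74, permutation p = 0.0064 and 0.0072), and 0.66 without the same tumours.

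**Figure D5:**
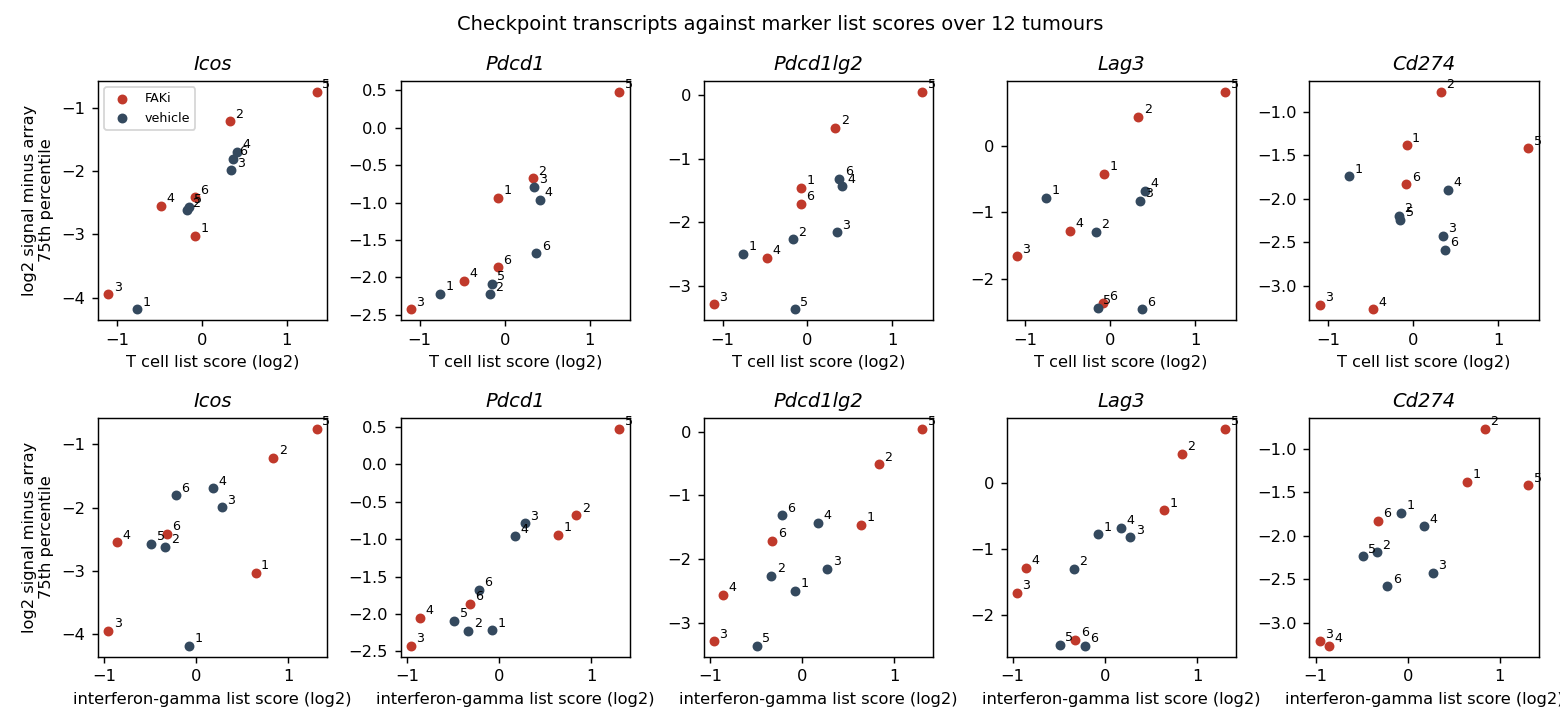
Level of 5 checkpoint genes (log2 signal minus the array's 75th percentile) against the T cell list score (upper row) and the interferon-gamma list score (lower row) in 12 tumours, FAKi in red and vehicle in blue, with tumour numbers. FAKi 5 is farthest right in both rows, and Icos against the T cell score has r = 0.92.

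The genes whose pattern over the 12 tumours was most like that of each checkpoint gene, by Pearson r among 16606 named genes, were as follows. For Pdcd1 they were Il2rb (0.97), Psmb9 (0.96) and Cd3g (0.95). For Cd274 they were Iigp1 (0.94), Gbp4 (0.93) and Rnf213 (0.90), of which Iigp1 and Gbp4 encode interferon-inducible GTPases. For Pdcd1lg2 they were Gbp10 (0.97), Batf2 (0.95) and Cd28 (0.93). For Lag3 they included H2-Q10 (0.95) and Il18bp (0.94). For Icos the leading genes were Tnfrsf4 (0.93), which encodes OX40, Cd5 (0.93) and Klk1 (0.93). Cd86 went with Fgl2 (0.92), Ptprc (0.91), which encodes CD45, and Parvg (0.91). Havcr2 went with Irf7 (0.92), Ptpn22 (0.89) and Gpr171 (0.88), and Tigit with Gbp9 (0.89), Gvin1 (0.89) and Gimap3 (0.88). Ctla4 went with Kank4 (0.87), Zswim4 (0.85) and Gfi1b (0.85), and Cd80 with Mcemp1 (0.87), Ctla2b (0.86) and Inhba (0.85). These are the highest of many correlations, over 12 tumours that share arrays and normalisation, and they are given as a description.

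Of 30 other co-inhibitory and co-stimulatory genes, all measured, 0 passed in limma, against 0% of all genes. The difference lay above 0 for 14 (46.7%) and below 0 for 16, against 60.5% of all genes above 0. The median difference was −0.04 log2, against 0.08 for all genes. Vtcn1, which encodes the inhibitory ligand B7-H4, was the 1 gene of these 30 with an unadjusted p under 0.05, against 4.79% of all genes. It gave −0.68 log2 (SE 0.31, limma adjusted p = 0.9994). Cd40lg, the ligand by which T cells engage CD40, gave 0.70 (SE 0.37), Tnfsf4 (OX40 ligand) 0.93 (SE 0.58) and Cd27 0.62 (SE 0.54), with limma adjusted p = 0.9994 each. The Tnfsf4 signal was dim, and well above background in 5 FAKi and 4 vehicle tumours. Leaving out 1 array gave 0.43 (without vehicle 2) to 1.22 (without FAKi 4) for Tnfsf4. Among partners of the checkpoint genes, the difference was 0.31 for Icosl (SE 0.26), 0.16 for Cd28 (SE 0.30), 0.25 for Nectin2 (named Pvrl2 on the array, SE 0.41), −0.07 for Pvr (SE 0.22) and 0.53 for Lgals9, a ligand of TIM-3 (SE 0.73). Tnfrsf14, the partner of BTLA, gave 0.32 (SE 0.28), and −0.47 as the mean of its probes.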

How the data were processed

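Total RNA of 12 tumours (6 FAKi, 6 vehicle) was hybridised to one-colour Agilent arrays, labelled with Cy5 per the labels' protocols. Intensity values came from the authors' run of Agilent Feature Extraction 11.5.1.1, background-subtracted, per the file headers, which name the build mm9 (1 header, of FAKi 6, lacks it). A table of log2 values for 38569 probes, deposited by the authors, had column medians of 10.71 to 10.90 and matched each array at r of at least 0.9965. Limma is named in the submitters' processing notes, and no source used here gives the table's normalisation. It served as an alternative.

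The log2 processed signal minus each array's 75th percentile was averaged over spots of a probe, without 71 to 156 outlier spots an array, and 0 spots were saturated. Probes well above background on at least 6 of 12 arrays were kept (40457), and each gene, by the array's own symbol, took its probe of highest mean. FAKi was compared with vehicle by limma 3.58.1 (R 4.3.3, lmFit and eBayes), adjusted by Benjamini-Hochberg over 27373 genes at a threshold of 0.05. Values of single probes came from a fit over all kept probes, and for the dim probe over all probes. List regressions used the same method. Permutation tests (NumPy, 100000 resamples, exact within groups of 6) were two-sided. The limma fit was tested on simulated data. Precision is limited by the number of tumours.

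The members and lists were chosen with earlier results of these data known. Named genes were the 10 members with all probes, 6 of the other co-inhibitory and co-stimulatory genes by smallest unadjusted p with 5 partners of members, the 3 genes most like each member (1 of those for Lag3 is not reported here), and Cd3e, Cd8a, Cd4, Foxp3, Cd68 and Itgax. Same-numbered tumours correlated at −0.12 to 0.48, so the numbers were not taken to pair them.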

Additional observations from a re-analysis of the deposited data

Results flagged for a closer look

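Icos in vehicle 1 lay far below the other 5 vehicle tumours, at −4.18 log2 against −2.62 to −1.69. Its gap to the nearest of them was 0.628882 of the group's whole range, above Dixon's 95% critical value for 6 samples. It was 1 of 20 groups examined, and chance gives about 1 in 20. The T cell list score of that tumour was −0.76, the lowest of the vehicle tumours. Without it the Icos difference between FAKi and vehicle was −0.18 log2 (limma adjusted p = 1).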

How the results depend on the processing

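Under every alternative run, 0 of 10 checkpoint genes and 0 of 30 other co-inhibitory and co-stimulatory genes passed for FAKi against vehicle, and Pdcd1, Pdcd1lg2, Ctla4, Lag3, Havcr2 and Cd86 kept their sign in each of the 28 fits. The all-gene count was 1 with normexp and 4 with array weights, and 0 to 3 when 1 array was left out, the 3 without FAKi 1. The replicate block gave 0 genes and changed no call, with Ctla4 at 0.45 (limma adjusted p = 0.828). Cd80 was 0.35, Tnfrsf14 −0.47 and Pvr 0.27 as the mean of probes. Tigit was 1.19 with slide as a fixed block, and Cd274 −0.049, Nectin2 (Pvrl2) −0.019 and Cd28 −0.015 with array weights. Icos was −0.047 with the interferon-gamma score as a covariate, an alternative chosen after seeing the data. Within slide 1 Havcr2 was 0.023 and Tigit 1.40. Within slide 4 Ctla4 was −0.14, Tigit 0.98, Cd80 0.22, Icos −0.81, Cd40lg −0.38, Tnfrsf14 −0.38, Nectin2 −0.10 and Cd28 −0.19. Without vehicle 5 and vehicle 6 together, also chosen after seeing the data, Lgals9 was −0.45, Nectin2 −0.25 and Pvr 0.10. Leaving out 1 array gave −0.044 to 0.46 for Cd274, −0.46 to 0.36 for Tigit, −0.18 to 0.49 for Icos, −0.021 to 0.29 for Cd28 and −0.16 to 0.045 for Pvr. On the T cell list, 1 checkpoint gene (Icos) passed with quantile normalisation, with normexp and in the authors' deposited table (adjusted p = 0.0380, 0.0301 and 0.0482). On the interferon-gamma list, 1 (Pdcd1) passed with normexp (adjusted p = 0.0400), and 0 to 1 when 1 array was left out, the 1 being Pdcd1 without vehicle 6. Of 28 other slopes and spreads, not given in the text, 51 of 477 values under alternatives lay on the other side of 0 and 0 passed. Beside the 3 alternatives just named, the spread of Cd274 gave 0.45 to 0.84 when 1 array was left out and 0 passed. The causes of these changes were not tested. With 6 tumours a group, the 95% interval of the difference ran from −0.60 to 0.23 log2 for Cd80, the narrowest of the 10, and from −1.66 to 1.53 for Tigit, the widest. The Cd80 interval is that of 1 probe that hardly varied, and the mean of the Cd80 probes (0.35) lay outside it. It does not make Cd80 the best determined of the 10.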
